A study of Mus musculus with 27 samples.

Results

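Klk1b11, Mcoln3, Lox, Gprc5b, Aoah, Arfgef3 and Adgb are 7 genes from among those whose array signal was raised most by cyclosporin A (CsA) in mouse bone marrow cultures grown with Flt3 ligand (Flt3-L). They were picked from the measured difference between cultures with and without CsA, so their CsA values are given as a description, with no test. All 7 of the 7 listed genes were found among the 19935 genes that a probe set of the array names alone. A probe set is the group of array probes that reads a transcript. Adgb had 2 such probe sets, of which the brighter was used, and each of the other genes had 1.

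RNA of bone marrow cells from C57BL/6 mice aged 8 to 12 weeks was measured on 27 one-colour Affymetrix arrays. Cultures with CsA received it at 2 µg/ml, 30 min before Flt3-L, and it stayed in the medium. Cultures with and without CsA held Flt3-L at about 200 ng/ml, taken from transfected B16 tumor cells, and each kind was sampled at 12 h, 24 h, 48 h and 11 days. With the unstimulated cells this made 9 groups of 3 arrays, which the study calls biological replicates. Fresh marrow and marrow cultured without ligand are not distinguished in the labels of the unstimulated group, so ligand and time in culture cannot be told apart in comparisons with it. The labels do not say whether cultures without CsA received its carrier; they are called Flt3-L alone here.

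CsA blocks calcineurin, a calcium-dependent phosphatase; NFAT transcription factors move into the nucleus once it has acted on them. Flt3-L acts on marrow progenitors and drives them toward dendritic cells and other myeloid cells. The 7 genes encode proteins of unlike kinds: a secreted protease (Klk1b11), a cation channel of endosomes and lysosomes (Mcoln3), an extracellular enzyme that crosslinks collagen and elastin (Lox), an orphan receptor of the cell surface (Gprc5b), a lipase that strips fatty acids from bacterial lipopolysaccharide (Aoah), a protein of the family that activates ARF GTPases (Arfgef3) and androglobin, a globin joined to a calpain-like domain (Adgb).

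In RefSeq's GRCm38.p6 annotation, Klk1b11 lies on chromosome 7 at 43995877 to 43999875 and Gprc5b on the same chromosome at 118972040 to 118995211. Mcoln3 spans 146093277 to 146141808 on chromosome 3 and Aoah 20794103 to 21036617 on chromosome 13. Arfgef3 (18588011 to 18743758) and Adgb (10335703 to 10475093) both lie on chromosome 10. The build used for the array's design was not given in the sources used here.

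The 250 bases before the annotated start are shown for 6 genes, from RefSeq and 5′ to 3′. Klk1b11 is set beside Klk1b16, the paralog with the most similar window, and Klk1b1, the paralog called in CsA comparisons at 24 h and 48 h. Mcoln3, Gprc5b and Arfgef3 are shown because their signals moved together across the arrays, some of which also served to pick them. Capitals mark matches, on either strand, to the letters GGAAA (the core of NFAT sites), TGANTCA (AP-1), CACGTG (the E-box of lysosomal gene promoters), TGATGNAA (the C/EBP-ATF response element) and TTTAAA.
Klk1b11, chr7:43995627-43995876, plus strand: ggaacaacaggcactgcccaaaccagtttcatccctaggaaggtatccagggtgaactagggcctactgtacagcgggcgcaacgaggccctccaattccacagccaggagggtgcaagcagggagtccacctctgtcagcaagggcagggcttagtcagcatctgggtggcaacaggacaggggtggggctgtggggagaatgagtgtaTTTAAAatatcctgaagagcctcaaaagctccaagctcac
Klk1b1, chr7:43966501-43966750, plus strand: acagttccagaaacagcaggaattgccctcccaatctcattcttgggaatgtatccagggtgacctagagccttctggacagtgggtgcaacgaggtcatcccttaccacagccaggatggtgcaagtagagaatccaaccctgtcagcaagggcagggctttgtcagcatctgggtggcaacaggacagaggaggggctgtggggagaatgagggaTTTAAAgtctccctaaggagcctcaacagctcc
Klk1b16, chr7:44137040-44137289, plus strand: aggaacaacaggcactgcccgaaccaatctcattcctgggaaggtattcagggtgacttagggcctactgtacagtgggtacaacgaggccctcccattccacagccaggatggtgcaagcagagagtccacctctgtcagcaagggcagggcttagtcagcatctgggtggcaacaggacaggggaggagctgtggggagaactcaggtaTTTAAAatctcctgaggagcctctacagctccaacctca
Mcoln3, chr3:146121541-146121790, plus strand: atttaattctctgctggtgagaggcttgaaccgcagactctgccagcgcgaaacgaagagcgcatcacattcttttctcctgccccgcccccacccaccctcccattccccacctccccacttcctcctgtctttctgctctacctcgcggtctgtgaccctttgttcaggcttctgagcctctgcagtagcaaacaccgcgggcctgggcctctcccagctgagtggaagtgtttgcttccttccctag
Gprc5b, chr7:118995212-118995461, minus strand: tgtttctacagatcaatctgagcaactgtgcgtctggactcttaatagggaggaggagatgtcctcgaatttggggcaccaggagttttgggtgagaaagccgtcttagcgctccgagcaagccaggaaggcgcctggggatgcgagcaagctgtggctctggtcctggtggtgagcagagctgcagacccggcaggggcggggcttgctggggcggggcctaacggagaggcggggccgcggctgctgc
Arfgef3, chr10:18743759-18744008, minus strand: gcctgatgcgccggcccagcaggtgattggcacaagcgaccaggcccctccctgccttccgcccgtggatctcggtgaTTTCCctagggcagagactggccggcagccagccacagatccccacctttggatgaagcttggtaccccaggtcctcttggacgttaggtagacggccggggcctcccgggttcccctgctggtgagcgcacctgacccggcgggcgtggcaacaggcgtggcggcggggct

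Few of these letters were found. Of 6 member genes with a sequence in the table, only Arfgef3 held GGAAA, on the strand opposite to the one printed, at position -172 from the start, while 55.6% of 32851 mouse promoter windows of the same length held it. TTTAAA began at position -40 in Klk1b11, -33 in Klk1b1 and -39 in Klk1b16, and 12.1% of all windows held it. None of the 6 held TGANTCA (6.75% of windows), CACGTG (6.02%) or TGATGNAA (3.45%). In an alignment, the windows of Klk1b11 and Klk1b16 shared 226 of 252 columns (89.7%), and those of Klk1b11 and Klk1b1 202 of 260 (77.7%). Among the other tested paralogs the windows of Klk1b5 (82.3%), Klk1b22 (80.7%) and Klk1b9 (78.4%) were closer to Klk1b11 than that of Klk1b1. The start used lies inside the annotated span of the gene for Mcoln3, Adgb and Klk1b16 (44122254 to 44141610 on chromosome 7), and the Aoah window also runs past the start of its span. GC content was 56.0% for Klk1b11, 58.0% for Mcoln3, 62.4% for Gprc5b and 68.4% for Arfgef3, with a median of 52.4% over all windows.

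The median signal of an array ranged over 114.2 to 124.8 (linear scale), and arrays of a group correlated across probe sets at 0.996 or more. Unstimulated cells carried the markers of marrow, with summed signals of 71621.2 to 73278.9 over 13 late neutrophil genes and 39145.6 to 42890.7 over 10 erythroid genes. Of the 27 arrays, 25 were most like an array of their own group. The third CsA arrays at 12 h and at 24 h were instead most like the third Flt3-L array of the same time. The CsA differences of the 7 genes at those times are also given without these CsA arrays, with the Flt3-L arrays kept. In deviations from group means, every CsA array at those times matched the Flt3-L array of its own replicate number best. The main model does not use replicate numbers. The number of arrays limits the precision, and errors below are SE of a limma model over all 27 arrays, with 3 arrays a group. Differences are in log2 signal, the group named first minus the other, unless given as a fold.

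A gene is called raised here at a time where its 3 CsA arrays all lay above the 3 Flt3-L arrays and the mean difference reached 1.5-fold. By that description 1 of the 7 genes was raised at 12 h (0.110% of all 19935 genes), 1 at 24 h (0.0552%), 4 at 48 h (0.125%) and 6 at 11 days (0.477%). Without the condition on size, the 3 CsA arrays lay above the 3 Flt3-L arrays for 3 of the 7 at 12 h (12.0% of all genes), 5 at 24 h (7.41%), 5 at 48 h (11.7%) and 7 at 11 days (17.2%). Klk1b11 was the only gene of the 7 with a sustained rise, present at 3 or more times, a pattern that 0.0301% of all genes had. Lox, Gprc5b and Aoah were raised at 11 days and at no other time, a pattern of 0.431% of all genes. Mcoln3 and Arfgef3 were raised at 48 h and 11 days, and Adgb at 48 h. Since CsA differences chose the genes, nothing is read from these shares. The patterns hang on the limit: with a 25% rise Mcoln3, Arfgef3 and Adgb were sustained too, and with 2-fold Klk1b11 was not. Genes outside the 7 had larger differences than some of them. At 11 days Cox6a2 stood between Gprc5b and Arfgef3 (3.09-fold) and Dio2 and Dcn just below Aoah (2.51- and 2.46-fold), and at 48 h Ccl2 and Ccl7 (1.99- and 1.97-fold) stood above all of the 7 but Klk1b11. These 5 were named after their values were seen. Adgb ranked 11 at 48 h, 54 at 24 h and 112 at 11 days.

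**Figure D1:**
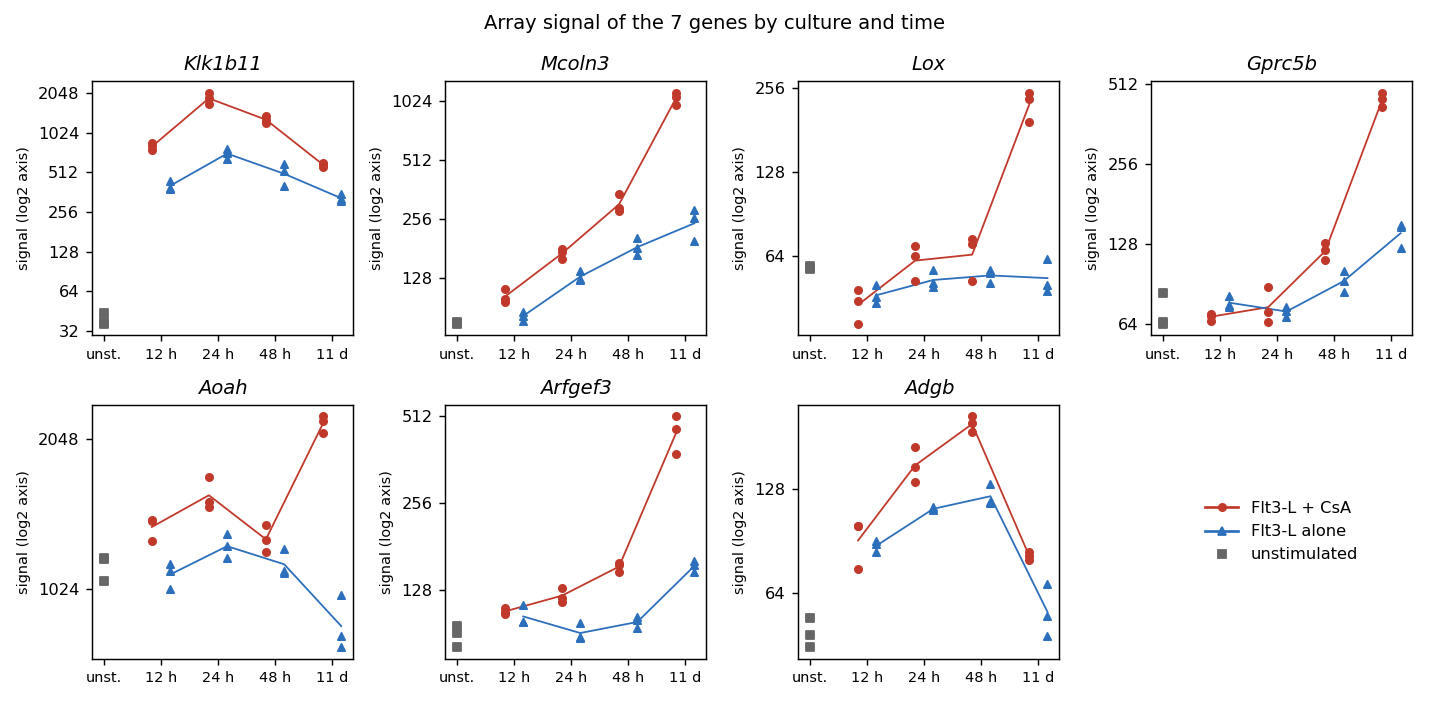
Signal of each of the 7 genes on every array (vertical log2 axis) in unstimulated cells and at 12 h, 24 h, 48 h and 11 days, with Flt3-L and CsA cultures in red and Flt3-L alone in blue; lines join geometric means of 3 arrays. Klk1b11 is above Flt3-L alone at all 4 times, and Lox, Gprc5b and Arfgef3 stand far above it at 11 days.

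Klk1b11 belongs to a cluster of mouse tissue kallikrein genes, secreted serine proteases best known from the submandibular gland. At 12 h its signal was 808.7, 853.7 and 752.6 in CsA cultures, against 382.7, 390.4 and 443.1 with Flt3-L alone. At 24 h it was 2075.2, 1689.7 and 1883.2 with CsA, against 648.4, 773.1 and 721.5 without. The lowest CsA array was above the highest Flt3-L array at both times. At 48 h the values were 1214.2, 1292 and 1370.4 with CsA, against 400.3, 525.6 and 594.5 with Flt3-L alone. At 11 days they were 602.2, 594.1 and 564.1, against 318.6, 350.7 and 309.2. The groups stayed apart at these times too. The log2 differences were 0.99, 1.40, 1.37 and 0.85 (SE 0.11), or 1.99-, 2.63-, 2.58- and 1.80-fold from the earliest time to the latest. Klk1b11 had the largest difference of all genes at 12 h, 24 h and 48 h, and ranked 40 at 11 days. Without the third CsA array, the difference was 1.04 at 12 h and 1.39 at 24 h.

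In both kinds of culture Klk1b11 rose to 24 h and then fell. Unstimulated cells gave 36.2, 37.5 and 43.3, far below every cultured array. With Flt3-L alone the gene rose over unstimulated cells by 3.38 ± 0.11 on the log2 scale at 12 h (10.4-fold, limma adjusted p = 9.55e-18) and by 4.20 ± 0.11 at 24 h (18.3-fold, adjusted p = 6.27e-20). It remained 12.9-fold higher at 48 h (adjusted p = 3.16e-19) and 8.38-fold higher at 11 days (adjusted p = 2.27e-18). Between successive times of Flt3-L alone it rose by 0.82 to 24 h (adjusted p = 4.70e-06), then changed by -0.51 to 48 h (adjusted p = 0.00125) and by -0.62 to 11 days (adjusted p = 2.87e-05). In CsA cultures the matching steps were 1.22, -0.54 and -1.14. These tests use Flt3-L arrays that also served as the level against which CsA cultures were set when the genes were picked. The highest group means were those of CsA at 24 h, 48 h and 12 h, and the arrays of CsA at 12 h overlapped those of Flt3-L at 24 h.

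The other kallikrein genes were set beside it. Of 26 listed, 20 were tested. With CsA 0 were called higher and 1 lower at 12 h (6.73% of all genes were called in either direction), 1 higher at 24 h (3.78%), 1 higher at 48 h (4.51%) and 2 higher at 11 days (12.0%). The list medians of -0.09, 0.01, 0.06 and 0.11 compare with -0.04, -0.01, 0.02 and 0.03 over all genes. At 24 h and 48 h the called gene was Klk1b1, whose paralog window is printed above. Its signal at 24 h was 43.2, 28.2 and 42.2 with CsA, against 22.4, 25.1 and 21.1 with Flt3-L alone. At 48 h it was 31.6, 38 and 35.3, against 14.6, 27.4 and 21.3. The groups did not overlap at these times, and the differences were 0.71 ± 0.18 (limma adjusted p = 0.0197) and 0.77 ± 0.18 (adjusted p = 0.00889).

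The Klk1b1 call at 24 h was lost on leaving out the first or the third array of either group, with adjusted p up to 0.114, and that at 48 h on leaving out the first Flt3-L array (adjusted p = 0.0874). At 12 h Klk1b1 gave 16.3, 16.3 and 12.3 with CsA, against 15.8, 14.3 and 14.8, which overlap. Klk1b16, the paralog with the most similar window, stayed between 11.4 and 15.6 on every array. That is far under the array medians of 114.2 to 124.8, so no lack of response can be read from it. Klk1b22 was higher at 11 days by 0.42 ± 0.13 (adjusted p = 0.0396), and Klk11 differed by -0.20 at 12 h (adjusted p = 0.0417) and 0.19 at 11 days (adjusted p = 0.0338). Each of these 3 calls was lost on leaving out any of 4 or 5 arrays of its comparison, with adjusted p up to 0.257. Whether the probes for Klk1b11 also read transcripts of its paralogs was not tested.

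**Figure D2:**
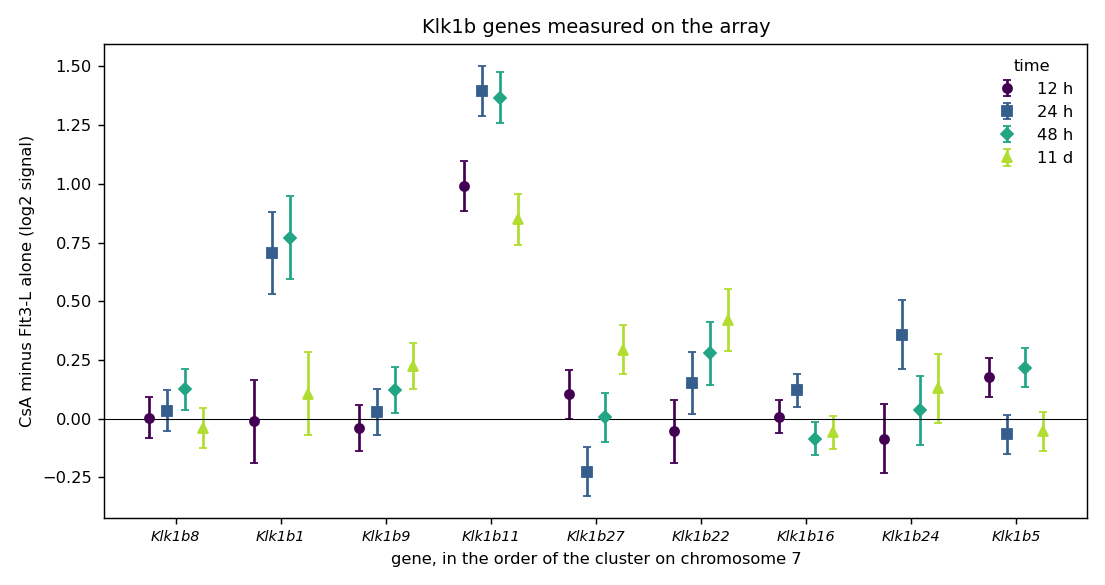
CsA minus Flt3-L difference in log2 signal (vertical axis, mean ± SE, 3 arrays a group) for the 9 Klk1b genes measured, in their order on chromosome 7, at 12 h, 24 h, 48 h and 11 days. Klk1b11 lies between 0.85 and 1.40 at the 4 times, and Klk1b1 lies above 0 at 24 h and 48 h.

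Mcoln3, the channel gene, was higher with CsA at all 4 times, by a margin that grew at the last. At 12 h it gave 99.1, 112 and 96.4 in CsA cultures, against 85.7, 77 and 81.9 with Flt3-L alone. At 24 h it gave 172.8, 158.5 and 179.8, against 126, 138.7 and 124.3. The arrays did not overlap at either time. At 48 h the values were 280.8, 341.8 and 290.8 with CsA, against 166.4, 181.7 and 203.4. At 11 days they were 1077.9, 980.2 and 1131.2 with CsA, against 257.2, 197 and 282.3 with Flt3-L alone. The lowest CsA array at 11 days was more than 3 times the highest Flt3-L array. The log2 differences were 0.33, 0.39, 0.73 and 2.13 (SE 0.10), the last being 4.37-fold and the largest of all genes at 11 days. Without the third CsA array it was 0.37 at 12 h and 0.35 at 24 h.

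Without CsA the level of Mcoln3 climbed as well. Unstimulated cells gave 76.3, 74.9 and 74.5. Against them Flt3-L alone was not called different at 12 h (0.11 ± 0.10, adjusted p = 0.409), and was higher by 0.78 at 24 h (adjusted p = 7.03e-07), 1.28 at 48 h (adjusted p = 9.74e-11) and 1.69 at 11 days (3.23-fold, adjusted p = 1.58e-13). Each successive step of Flt3-L alone was called: 0.67 to 24 h (adjusted p = 3.70e-05), 0.50 to 48 h (adjusted p = 0.00093) and 0.41 to 11 days (adjusted p = 0.0018). With CsA the 11-day mean was 3.50-fold that of 48 h, and with Flt3-L alone 1.32-fold. Flt3-L at 11 days and CsA at 48 h overlapped in the order of levels.

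Other ion channel and transporter genes of endosomes and lysosomes, with transcription factors that regulate such genes, made a list of 16 tested genes. With CsA 1 was called higher and 2 lower at 12 h, 1 higher at 24 h, 1 higher at 48 h, and 3 higher and 1 lower at 11 days, where 6.73%, 3.78%, 4.51% and 12.0% of all genes were called. The list medians were 0.01, 0.05, 0.00 and 0.15, against -0.04, -0.01, 0.02 and 0.03 over all genes. Mcoln2, the neighbour of Mcoln3 on chromosome 3 (146149796 to 146195514) and a channel of the same family, was lower with CsA at 12 h, with 300.2, 274.7 and 263.5 against 413.4, 354.4 and 406.1 (-0.48 ± 0.09, adjusted p = 0.00371). At 11 days it was higher, with 1332.3, 1317.5 and 1274.3 against 1008.4, 811.7 and 922.7 (0.52 ± 0.09, adjusted p = 0.000257). Both calls held without any 1 array. Mcoln1 was higher by 0.20 at 11 days (adjusted p = 0.0257), a call lost on leaving out the second or the third array of either group, with adjusted p up to 0.197. Mitf, a transcription factor of lysosomal and other genes, was lower at 12 h (difference -0.52, adjusted p = 0.000185) and at 11 days (-0.50, adjusted p = 1.71e-05), and the 12 h call ended when probe sets of a gene were averaged. Clcn6, a chloride transporter, was higher at 12 h and 11 days, with differences of 0.21 and 0.22, calls lost on leaving out any of 5 arrays at 12 h and any of 2 at 11 days (adjusted p up to 0.126). The calls of Clcn3 at 24 h (0.26) and Clcn7 at 48 h (0.19) also ended without single arrays (adjusted p up to 0.199).

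Lox, at 52516060 to 52529867 on chromosome 18, was near a flat level in every group except CsA at 11 days. It gave 193.8, 235.1 and 247.5 with CsA at 11 days, against 48.3, 62.9 and 50.5 with Flt3-L alone. All 24 of the other arrays lay between 36.8 and 74.2, below the array medians of 114.2 to 124.8. Only 28.7% of genes had a lower mean log2 signal than Lox over the 27 arrays. The log2 difference at 11 days was 2.07 ± 0.13 (4.19-fold, the second largest of all genes). At 12 h it was -0.11, with 48.6, 36.8 and 44.3 with CsA and 50.4, 45.7 and 43.6 without. At 24 h and 48 h it was 0.23 and 0.25, and CsA arrays overlapped with Flt3-L arrays at all 3 earlier times. Without the third CsA array the 12 h value was -0.14 and the 24 h value 0.14. Unstimulated cells gave 57.5, 59 and 58.4, and with Flt3-L alone the gene was lower at 12 h (difference -0.33 ± 0.13, limma adjusted p = 0.0498), a call lost on leaving out any of the 6 arrays but the first Flt3-L array (adjusted p up to 0.156). At 24 h, 48 h and 11 days it was not called different from unstimulated cells (adjusted p of 0.432, 0.673 and 0.472), nor between any successive times.

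Other genes for collagen crosslinking and its substrates were mixed at 11 days. Of 18 tested, 5 were called higher and 3 lower with CsA (12.0% of all genes were called). The higher ones were Loxl4 (0.25 ± 0.08), a lysyl oxidase-like enzyme, the lysyl hydroxylases Plod1 (0.27 ± 0.06) and Plod2 (0.50 ± 0.11), the prolyl hydroxylase subunit P4ha2 (0.43 ± 0.12) and the elastic fibre protein Fbln5 (0.37 ± 0.08). Loxl3 (-0.32 ± 0.08), Plod3 (-0.24 ± 0.06) and fibronectin, Fn1, were lower. Fn1, a matrix glycoprotein that binds collagen, gave 707.3, 932.1 and 670.9 with CsA at 11 days, against 2915.8, 3177.9 and 2795.9 with Flt3-L alone (-1.96 ± 0.11, adjusted p = 1.26e-12). It was lower at every time, with differences of -1.05, -0.77 and -1.48 at 12 h, 24 h and 48 h (adjusted p of 3.17e-06, 5.59e-05 and 3.73e-09). The calls of Fn1, Plod1, Plod2, Plod3, Fbln5 and Loxl3 held without any 1 array, while that of Loxl4 was lost on leaving out any of 5 arrays and that of P4ha2 any of 3 (adjusted p up to 0.191). At the earlier times P4ha1 was the only other called gene, higher at 12 h and 48 h, in calls lost on leaving out any of 3 arrays at 12 h and any of 5 at 48 h (adjusted p up to 0.252). The list medians at 12 h, 24 h, 48 h and 11 days were -0.12, -0.03, 0.03 and 0.09.

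Gprc5b was raised late. It gave 419.8, 473.6 and 446.5 with CsA at 11 days, against 123.9, 151.2 and 148.1 with Flt3-L alone, and 111.1, 129.4 and 121.8 at 48 h, against 84.6, 93.2 and 101.5. The CsA arrays lay above the Flt3-L arrays at both times, and the differences were 1.67 ± 0.10 (3.17-fold, the third largest of all genes) and 0.38 ± 0.10. At 12 h CsA arrays gave 66.1, 68.8 and 70.2, all below the Flt3-L arrays of 81.6, 74.6 and 75.3 (-0.17 ± 0.10). That difference was -0.19 without the third CsA array and -0.06 when the arrays were quantile normalized again. The median over all genes at 12 h was -0.04. At 24 h CsA arrays gave 65.4, 70.9 and 88.1, against 71.8, 68.4 and 74.3, with an overlap and a difference of 0.05, which was -0.07 without the third CsA array.

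With Flt3-L alone Gprc5b was higher than in unstimulated cells (64.4, 84.1 and 65.4) at 48 h by 0.39 ± 0.10 (limma adjusted p = 0.00342) and at 11 days by 0.99 ± 0.10 (adjusted p = 6.34e-09). At 12 h and 24 h it was not called. The steps to 48 h (0.38, adjusted p = 0.0117) and to 11 days (0.60, adjusted p = 2.82e-05) were called, and the step to 48 h was no longer called without the second Flt3-L array at 24 h (adjusted p = 0.0508) or the third at 48 h (adjusted p = 0.0749). Of 6 other class C orphan receptors tested, the only call in a CsA comparison was Gprc5c, of the same subfamily, at 11 days (12.0% of all genes were called). At 12 h, 24 h and 48 h 0 were called, beside 6.73%, 3.78% and 4.51% of all genes. With an unadjusted p under 0.05, 1 differed at 12 h and 0 at 24 h and 48 h. Gprc5c gave 244.3, 166.1 and 165.8 with CsA, against 617.5, 445.5 and 562.9 with Flt3-L alone. These groups did not overlap, and Gprc5c was 2.84-fold lower (difference -1.51 ± 0.13, adjusted p = 2.58e-09), with the opposite sign to Gprc5b.

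Aoah was higher with CsA at 12 h, 24 h and 11 days, by most at 11 days, when its level with Flt3-L alone was at its lowest. At 12 h it gave 1404.3, 1411.6 and 1280.9 with CsA, against 1023.7, 1116.4 and 1152.2. At 24 h it gave 1532.3, 1713.6 and 1499 with CsA, against 1181.7, 1319.7 and 1249.3. CsA arrays were higher throughout at both times, with differences of 0.32 and 0.34 (SE 0.08), or 0.36 and 0.38 without the third CsA array. At 48 h they were 1214.2, 1374 and 1284, against 1104.6, 1230.7 and 1116.5, and one Flt3-L array lay within the range of the CsA arrays (0.17). At 11 days CsA gave 2099, 2224.6 and 2271.1, against 824.6, 784.3 and 998.7. The 11-day difference was 1.35 ± 0.08 (2.54-fold), the sixth largest of all genes. Without CsA the gene was lower at 11 days than in unstimulated cells (1064.5, 1183.7 and 1178.8), with a difference of -0.40 ± 0.08 (limma adjusted p = 0.000113), and lower than at 48 h (-0.41, adjusted p = 0.000117). It was not called at 12 h, 24 h or 48 h. The 11-day Flt3-L arrays of these tests are the ones against which CsA was set when Aoah was picked for a large difference, so the tests are not independent of that choice.

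Aoah inactivates lipopolysaccharide, so genes that bind or sense it were set beside it, 15 tested. At 12 h, 24 h and 48 h 3, 3 and 2 were called lower with CsA and 0 higher, and at 11 days 4 higher and 0 lower. Over all genes 6.73%, 3.78%, 4.51% and 12.0% were called at the 4 times. Cd14, a co-receptor for lipopolysaccharide, was lower at the earlier times, with differences of -0.75, -0.52 and -0.85 (adjusted p of 0.00031, 0.00654 and 2.35e-05). The 24 h call ended without the first CsA array (adjusted p = 0.0636). Pltp, a lipid transfer protein, was lower too (-0.40, -0.61 and -0.65), though its 12 h call was lost without the second Flt3-L array (adjusted p = 0.0535). At 11 days Lbp, the lipopolysaccharide binding protein, gave 375.5, 413.7 and 451.9 with CsA, against 171.6, 196.8 and 211.3 (1.10 ± 0.08, 2.14-fold, adjusted p = 2.59e-10). Tlr4, the receptor, was higher by 0.36 ± 0.09 (adjusted p = 0.00532), Ticam2, its adaptor, by 0.38 ± 0.06 (adjusted p = 1.70e-05) and Ly86, which pairs with Cd180, by 0.20. The Ly86 call ended without either of 2 arrays (adjusted p = 0.0603 at most), and the Lbp, Tlr4 and Ticam2 calls held without any 1. The list medians were -0.07, -0.10, -0.02 and 0.07.

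**Figure D3:**
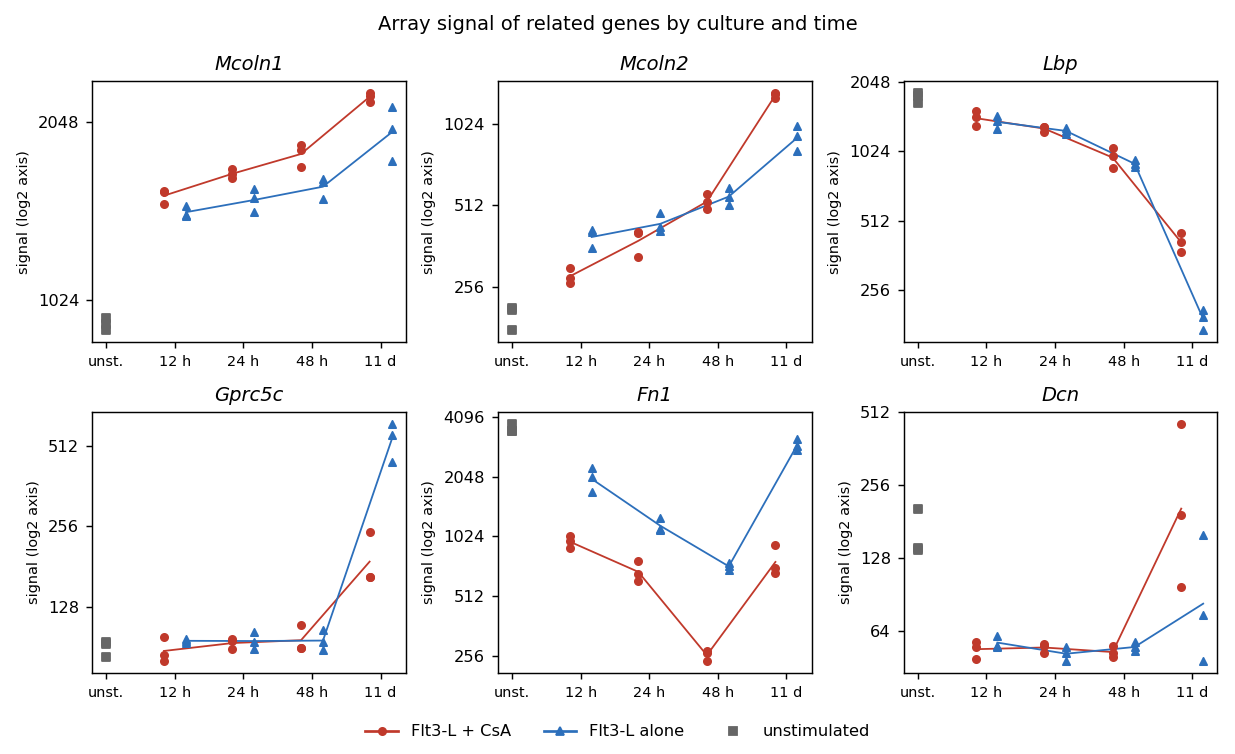
Signal on every array (vertical log2 axis) of Mcoln1, Mcoln2, Lbp, Gprc5c, Fn1 and Dcn in unstimulated cells and at 12 h, 24 h, 48 h and 11 days; CsA with Flt3-L in red, Flt3-L alone in blue, lines joining geometric means of 3 arrays. Lbp is higher and Gprc5c and Fn1 are lower with CsA at 11 days, and the 3 CsA arrays of Dcn spread from 97.3 to 458.

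Arfgef3 and Adgb were both raised at 48 h, and differed at 11 days. Arfgef3 gave 378.8, 509.9 and 462 with CsA at 11 days, against 147.9, 161.1 and 156.1 with Flt3-L alone (1.53 ± 0.08, 2.88-fold, the fifth largest of all genes). At 48 h it gave 156.4, 158.7 and 147.5, against 100.4, 94.2 and 103.2 (0.64), and at 24 h 116.7, 130.1 and 120.5, against 98, 87.2 and 87.7 (0.43). The CsA arrays lay above the Flt3-L arrays at these 3 times. Without the third CsA array the 24 h difference was 0.44 and that at 12 h 0.07. At 12 h, where the difference was 0.06, CsA gave 110.7, 107.6 and 105.4, against 99.2, 98.8 and 113.6. Flt3-L alone at 11 days was 0.80 ± 0.08 above unstimulated cells (81.1, 95.7 and 90.6, limma adjusted p = 6.75e-09), and 0.64 above 48 h (adjusted p = 4.87e-07). At 12 h it was 0.22 above (adjusted p = 0.0428), a call that ended under quantile normalization again (adjusted p = 0.136) and without the first or the third unstimulated array or the third Flt3-L array (adjusted p up to 0.219). Among 15 other ARF exchange factors tested, Arfgef2 was higher with CsA at 12 h, 24 h and 48 h by 0.21, 0.24 and 0.23, Cyth4 was lower at 12 h, 24 h and 11 days (-0.31, -0.26 and -0.20), and at 11 days Psd3 was higher (0.35 ± 0.07) and Psd4 (-0.31 ± 0.06) and Cyth1 (-0.20) lower. Calls of Arfgef2 at 12 h and 48 h, Cyth4 at 11 days and Cyth1 ended without single arrays, with adjusted p up to 0.318, and the others held. At the 4 times 1, 1, 1 and 1 were called higher and 1, 1, 0 and 3 lower, beside 6.73%, 3.78%, 4.51% and 12.0% of all genes. The list medians were 0.02, -0.09, -0.01 and 0.01.

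Adgb rose and fell within the time course. It gave 197.9, 207.4 and 186.5 with CsA at 48 h, against 132.2, 116.4 and 117.5 (0.69 ± 0.11), and 147.9, 169.4 and 133.6 at 24 h, against 113.6, 111.6 and 111 (0.42, or 0.50 without the third CsA array). At 12 h CsA gave 99.7, 100.1 and 74.9, against 84.2, 88.6 and 90.2, which overlap (0.05, and 0.19 without the third CsA array). At 11 days it gave 83.8, 79.9 and 82, against 68, 48.2 and 54.8 (0.54), which is 1.45-fold, just under the 1.5-fold used above. With the mean of its 2 probe sets the 11-day difference was 0.73, past that size. The smallest raised value on the other side was that of Arfgef3 at 48 h, at 1.55-fold. The second Adgb probe set gave 0.31, 0.23, 0.83 and 0.93, with no overlap of the groups at 48 h and 11 days. With Flt3-L alone Adgb was higher than in unstimulated cells (44.6, 54.2 and 48.4) by 0.84, 1.20 and 1.32 at 12 h, 24 h and 48 h (limma adjusted p of 8.63e-07, 1.87e-09 and 2.22e-10). At 11 days it was not (0.21, adjusted p = 0.125), and the step to 11 days was -1.11 (adjusted p = 4.15e-09). The step to 24 h (0.35, adjusted p = 0.0350) was lost on leaving out any of its 6 arrays (adjusted p up to 0.126). In the list of globins and calpains, 20 tested, 1, 0, 2 and 1 were called higher and 2, 0, 0 and 2 lower at the 4 times, beside 6.73%, 3.78%, 4.51% and 12.0% of all genes, with medians of -0.05, 0.00, 0.01 and 0.01. At 24 h, where limma called none, 2 were higher and 1 lower at an unadjusted p under 0.05. Capn2, a calpain, was higher by 0.27 ± 0.05 at 48 h and held without any 1 array.

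**Figure D4:**
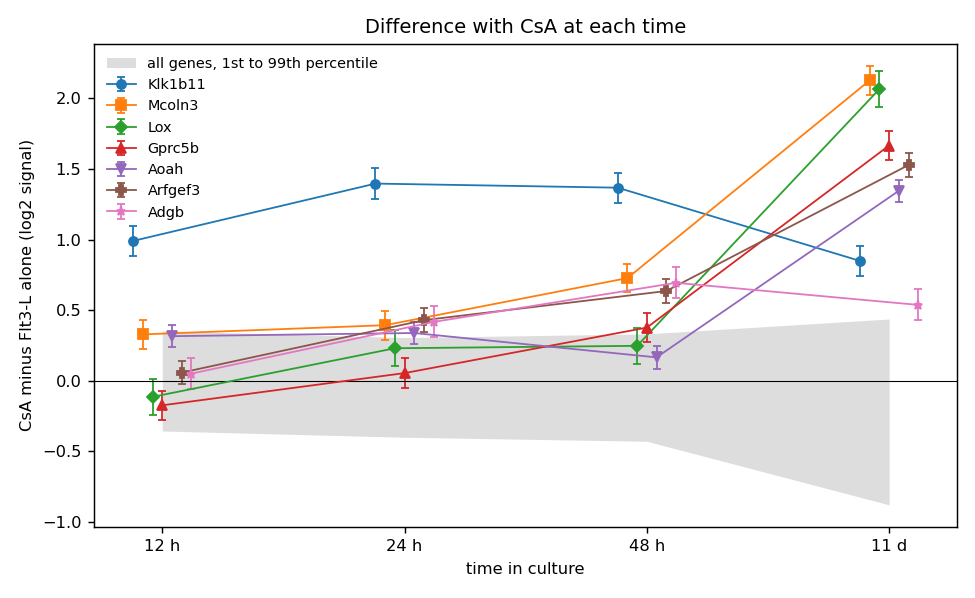
CsA minus Flt3-L difference in log2 signal (vertical axis, mean ± SE, 3 arrays a group) of the 7 genes at 12 h, 24 h, 48 h and 11 days; the grey band spans the 1st to 99th percentile of all 19935 genes. Klk1b11 is above the band at every time, from 0.85 to 1.40, and at 11 days all 7 genes are above 0.44, where the band ends.

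In comparisons without CsA cultures, 4 of the 7 were called between Flt3-L alone and unstimulated cells at 12 h (36.0% of all genes were called), 3 at 24 h (35.6%), 4 at 48 h (37.1%) and 5 at 11 days (51.9%). The Flt3-L arrays here are also those against which CsA was set when the genes were picked, so these tests are not independent of the choice, and nothing particular to the 7 is read from the shares. Between successive times of Flt3-L alone, 3 were called to 24 h (11.1% of all genes), 3 to 48 h (17.1%) and 6 to 11 days (43.0%), with Lox as the exception. Of the 6, Mcoln3, Gprc5b and Arfgef3 were higher at 11 days than at 48 h, and Klk1b11, Aoah and Adgb lower.

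**Figure D5:**
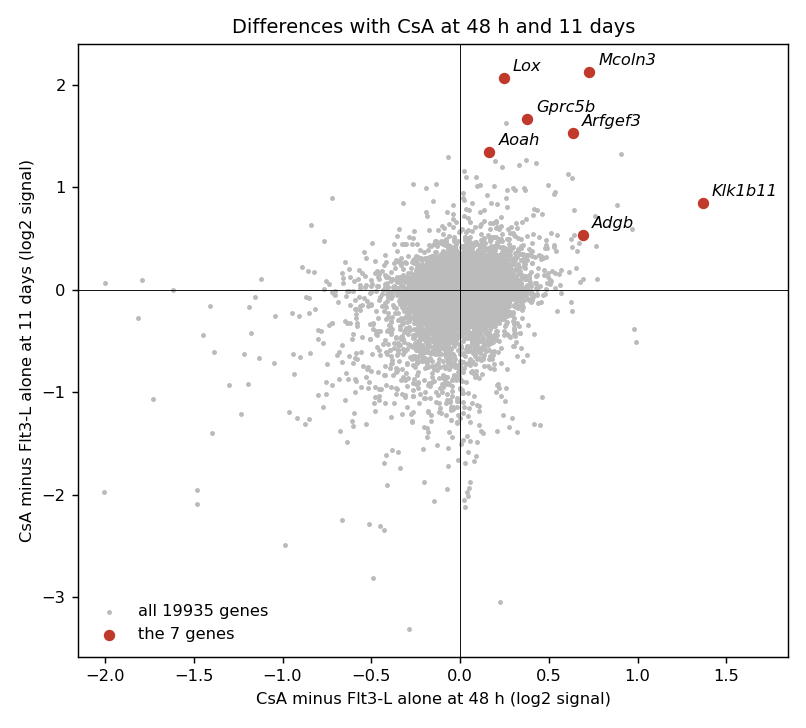
CsA minus Flt3-L difference in log2 signal at 48 h (horizontal axis) and at 11 days (vertical axis) for all 19935 genes in grey and the 7 genes in red. Mcoln3, Lox and Gprc5b stand highest at 11 days, with Arfgef3 and Aoah below them, and Klk1b11 farthest right at 48 h.

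The genes most alike in level were listed by Pearson correlation of log2 signal over the 27 arrays, which share time in culture and the CsA groups, so the values describe these arrays only. Arfgef3 and Gprc5b were alike at 0.96, and Mcoln3, Lox, Gprc5b and Arfgef3 correlated with each other at 0.85 to 0.96. Klk1b11 and Adgb correlated at 0.81, while Aoah had 0.31 to 0.74 with the other 6. Nearest to Klk1b11 were Serac1 (0.957), Tbc1d20 (0.946) and Vegfa (0.942). Nearest to Mcoln3 were Osbpl1a and Alg1 (0.946 each) and Gpr162, to Lox Prkg1 (0.903), to Gprc5b Epas1 (0.949) and Phyhd1 (0.942) after Arfgef3, to Aoah Nupr1 (0.808), Ern1 (0.780) and Matn2 (0.779), to Arfgef3 Abcb1a (0.942), and to Adgb Samd5 (0.885). Epas1 at 11 days gave 1013.6, 1086.7 and 1161.8 with CsA, against 510.1, 375 and 483.6.

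Marker genes of several cell types also differed with CsA, and in bulk samples fewer cells of a type and less RNA per cell cannot be told apart. At 11 days, where 12.0% of all genes were called, 13 of 14 conventional dendritic cell markers were lower with CsA and 0 higher, and their summed signal was 17754.7 to 21560 with CsA, against 28129.8 to 30089.5 with Flt3-L alone. Late neutrophil markers were lower in 11 of 13 (sum 2075.8 to 2876.2, against 5536.9 to 6105). limma called 0 of 14 macrophage markers (2 higher and 0 lower at an unadjusted p under 0.05), with sums of 63513.2 to 64272.3, against 59459.2 to 61165. Stromal and fibroblast markers, which bear on Lox, were higher in 2 and lower in 2 of 15, with sums of 1740.4 to 2241.6, against 1724.5 to 1990.5, and Dcn, one of the higher ones, gave 458, 97.3 and 192.5 with CsA, against 48.1, 74.7 and 159.5, an overlapping difference of 1.30 (adjusted p = 0.0133) that was no longer called on leaving out the first or second Flt3-L array or the first CsA array (adjusted p up to 0.137). Their part in the results for the 7 genes was not tested. Among the other marker lists at 11 days, 3 plasmacytoid dendritic cell genes were higher and 5 lower of 11, 9 of 14 mast cell, basophil and eosinophil genes were lower, and 5 of 11 B lineage genes were lower. T and NK cell genes gave 1 higher and 5 lower of 13, stem and progenitor genes 2 and 6 of 12, and erythroid genes 1 and 2 of 10. Of the primary granule genes 3 of 7 were lower, and of the megakaryocyte genes 2 of 10.

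At 24 h and 48 h, when Klk1b11, Mcoln3, Arfgef3 and Adgb already stood higher with CsA, other markers were lower. Mast cell, basophil and eosinophil genes were called lower with CsA in 2 of 14 at 12 h (6.73% of all genes were called), 10 at 24 h (3.78%) and 12 at 48 h (4.51%). Their summed signal was 8070.3 to 8587.8 with CsA at 24 h, against 13280.8 to 14015.5 with Flt3-L alone, and 4978.4 to 5547.5 at 48 h, against 7929.8 to 8248.7. B lineage genes were lower in 1, 2 and 8 of 11 at the 3 times, with sums at 48 h of 8227.8 to 9941.5 with CsA, against 11916.8 to 13193.5. Of 14 conventional dendritic cell markers 2 were lower and 1 higher at 12 h, 4 lower at 24 h and 1 lower at 48 h, and each other list had at most 2 calls at any of these times. The part of these markers in the results for the 7 genes was not tested.

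The other genes with a sustained rise under CsA by the same description were Atf5, Trib3, Dnajb9, Sec24d and Cd200r2. Dnajb9, an endoplasmic reticulum chaperone, differed by 0.60, 0.65, 0.69 and 0.10 at the 4 times, and Sec24d, a coat component of vesicles leaving that organelle, by 0.79, 0.69, 0.68 and 0.08. Trib3 and Atf5, which take part in the response to cellular stress, differed at 11 days by 0.83 and 0.60. Klk1b11 had the largest value of the 6 genes at each of the 4 times, but it was picked for this difference, so nothing is read from that order. At 11 days its 0.85 (SE 0.11) was close to the 0.83 of Trib3.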

How the data were processed

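The submitters' processing notes name RMA, with no version, as the tool by which the authors summarised and normalized the arrays into probe set signals. Deposited intensity values were linear, from 5.2 to 18180.7, so they were put on a log2 scale here. Of 28815 probe sets, 21780 named a single gene in the platform's annotation, 1605 several and 5430 none; only the first were used, with the brightest probe set of the 998 genes that had several, leaving 19935 genes. The platform annotation can be old, and 0 symbols were updated.

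All 27 arrays entered 1 model of 9 group means (limma 3.58.1, run in R 4.3.3). P-values were Benjamini-Hochberg adjusted over all genes of a comparison, with calls at an adjusted p under 0.05. At each time CsA was set against Flt3-L alone; the other comparisons were Flt3-L alone against unstimulated cells, and successive times of Flt3-L alone. Tables were made in pandas 2.3.3 and numpy 2.4.6 (Python 3.11.15) and plots in matplotlib 3.10.9. The members and the gene lists were chosen with earlier results of these data known. Text names all members and up to 4 genes a family list and comparison. The collagen crosslinking list at 11 days is an exception, with every called gene named (5 higher and 3 lower). Of the 3 genes most correlated with each member, some are left unnamed, as for Adgb, where only the first is given. Replicate numbers were checked as pairs: deviations from group means correlated above 0.1 for all pairs of CsA at 24 h (0.369, 0.346 and 0.398) and 48 h (0.539, 0.178 and 0.192), Flt3-L against unstimulated cells at 12 h (0.196, 0.144 and 0.103) and 24 h (0.347, 0.126 and 0.182), and the step to 48 h (0.459, 0.446 and 0.405). The model with the block was fitted for all comparisons, as an alternative, including those, such as CsA at 12 h (0.190, 0.188 and 0.098), where not all pairs passed. The labels state no pairing. Promoter windows came from RefSeq, GRCm38.p6. Lists of cell type markers and families were tested gene by gene, with no set test.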

Additional observations from a re-analysis of the deposited data

Results flagged for a closer look

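Gprc5b changed sides between times under CsA. Its CsA minus Flt3-L difference in log2 signal was -0.17 at 12 h, where all 3 CsA arrays lay below all 3 Flt3-L arrays, and 0.38 at 48 h and 1.67 at 11 days, where all 3 lay above. Over all genes, all 3 lay above for 11.7% at 48 h and 17.2% at 11 days. The 12 h value (SE 0.10) ranked 16719 of 19935 genes, counted from the largest rise, and the median over all genes was -0.04. It was -0.0614 when the arrays were quantile normalized again. The difference between the times was not tested, since the CsA contrasts chose the gene. No other of the 7 genes had groups apart in opposite directions at different times. The shares of all genes with CsA arrays wholly below at 12 h, or with such a change of direction, were not counted.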

How the results depend on the processing

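The arrays limit the precision to 3 a group. Dim probe sets such as those of Klk1b1 and Klk1b16 lie near the low end of the signal scale, with no background measure used here. The number of genes with a sustained rise (1) and with a rise at 11 days only (3) was the same under quantile normalization again, subtraction of array medians, the mean of probe sets and leaving out each of 24 arrays. Among CsA differences, that of Gprc5b at 12 h moved to -0.0614 under quantile normalization again, and that of Adgb at 11 days to 0.7315 with the mean of probe sets, which crossed the 1.5-fold limit. With a limit of a 25% rise the numbers became 4 sustained and 1 at 11 days only, and with 2-fold 0 sustained and 5 at 11 days only, as the limit alone sets.

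Genes called by CsA at 12 h numbered 1341, but 5301 with array weights, 2111 with the replicate block, 177 with only the groups compared, and 332 to 3221 without 1 array. The 332 came without the second CsA array. The 3221 came without the third, which was most like a Flt3-L array and was kept in the main fit. At 24 h 754 became 396 with only the groups compared and 475 to 594 without 1 array, and at 48 h 900 became 451 and 586 to 693. The cause was not tested. Members called by Flt3-L at 12 h went between 2 and 4 without 1 array. The replicate block changed no call of the 7 genes. Values near 0 changed sign: Arfgef3 for Flt3-L at 24 h (-0.022 with array weights, -0.0176 with quantile normalization, -0.0358 to 0.0836 without 1 array), Gprc5b at 24 h (-0.0174, -0.0245 and, with medians subtracted, -0.0007, and -0.0536 to 0.1389 without 1 array), Aoah at 48 h (-0.0021 with array weights, -0.0396 to 0.039 without 1 array), the Adgb step to 48 h (-0.0248 with the mean of probe sets) and the Lox step to 11 days (0.0087 with medians subtracted, -0.1485 to 0.042 without 1 array). Of 1764 single-gene values, 1582 kept direction and side of the threshold, 161 lost a call, 2 gained one, 2 moved and 17 changed sign.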
